A study of Mus musculus with 30 samples.

Results

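The transcripts described here encode the precursors of neuropeptides made by cortical interneurons and by hypothalamic neurons. The list holds 9 genes: Sst, Npy, Vip, Cck, Adcyap1, Avp, Oxt, Trh and Pmch. Every probe set of the array whose annotated gene symbol is exactly one of these was taken, which gave 8 probe sets for 8 genes, 1 for each gene, among 22626 probe sets. Pmch was matched to no probe set and is not analysed here. The genes were chosen by symbol after their log2 values on the same arrays had been seen, so levels and differences describe these mice and support nothing further. They were measured in forebrain of 30 male C57BL mice, 10 untreated, 10 given clozapine at 12 mg/kg/day and 10 given haloperidol at 1.6 mg/kg/day in the drinking water for 12 weeks. Clozapine is an atypical and haloperidol a typical antipsychotic. The labels give the age of all mice as 4 weeks, which cannot be the age after 12 weeks of drug. They name the right hemisphere in some fields and the left in another, and the dosing note of the haloperidol mice names clozapine. All mice were housed singly, and each RNA sample came from 1 mouse with no pooling. The question was how prolonged dosing with either drug alters brain expression.

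Neuropeptides are cut from larger precursor proteins inside secretory vesicles and released alongside the classical transmitters. Somatostatin (Sst), neuropeptide Y (Npy), vasoactive intestinal peptide (Vip) and cholecystokinin (Cck) mark families of GABAergic interneurons in the cortex and hippocampus, and Cck is also made by many excitatory neurons. Vasopressin (Avp), oxytocin (Oxt) and thyrotropin-releasing hormone (Trh) are best known from the hypothalamus, where they reach the pituitary as hormones. Adcyap1 encodes PACAP, a relative of Vip that acts on shared receptors.

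Several of these genes are textbook targets of CREB, which binds the cAMP response element TGACGTCA, so their promoters are shown for orientation. The 300-base promoters of RefSeq, from 250 bases before to 50 after each transcription start on build GRCm38.p6, were searched on both strands for TGACGTCA and for the shorter forms TGACGTC and TGACG that it contains. The full element was found in Sst only among the 8 measured genes, at bases -48 to -41 from the start. Vip held the 7-base form at -79 to -73, and Adcyap1 held it at -91 to -85 from the first of its start sites. In the sequences, read 5' to 3' on the strand of the gene, capitals mark the longest form found.
Sst, chr16:23890795-23891094, minus strand: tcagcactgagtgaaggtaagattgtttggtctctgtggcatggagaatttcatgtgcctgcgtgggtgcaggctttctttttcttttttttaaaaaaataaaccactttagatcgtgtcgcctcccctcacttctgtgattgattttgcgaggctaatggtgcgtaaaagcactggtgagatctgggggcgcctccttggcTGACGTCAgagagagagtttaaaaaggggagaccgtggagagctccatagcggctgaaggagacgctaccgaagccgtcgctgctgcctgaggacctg
Vip, chr10:5638968-5639267, plus strand: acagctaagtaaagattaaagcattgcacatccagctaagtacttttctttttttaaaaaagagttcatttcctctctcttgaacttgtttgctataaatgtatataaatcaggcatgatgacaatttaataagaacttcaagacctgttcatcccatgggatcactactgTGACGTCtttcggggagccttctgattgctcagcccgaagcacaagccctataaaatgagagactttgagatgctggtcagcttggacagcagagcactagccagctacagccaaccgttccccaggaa
Adcyap1, chr17:93198767-93199066, plus strand: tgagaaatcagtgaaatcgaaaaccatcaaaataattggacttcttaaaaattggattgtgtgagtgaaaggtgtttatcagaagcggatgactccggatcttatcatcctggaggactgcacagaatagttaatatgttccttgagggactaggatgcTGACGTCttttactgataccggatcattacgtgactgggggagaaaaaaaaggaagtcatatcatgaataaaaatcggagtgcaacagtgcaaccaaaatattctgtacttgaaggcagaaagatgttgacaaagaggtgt
Cck and Trh held only TGACG, and the windows of Npy, Avp and Oxt held none of the 3 forms. Of 32851 mouse promoters of this length, 1.79% held TGACGTCA, 3.21% held TGACGTC and 20.8% held TGACG. A match describes the letters in the window and not a binding site in these tissues. Avp and Oxt are neighbours on chromosome 2, with 0 annotated genes between them.

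All values are deposited GCRMA values on a log2 scale, in which a difference of 1 is a doubling of signal. Probe sets have different affinities, so a level is compared between mice and not between genes. In these whole-tissue samples, fewer cells of a type and less RNA per cell cannot be told apart. For tests, probe sets with a mean of at least 4 were kept, which left 12944 in all and 7 of the 8 members. Adcyap1 (mean 4.43) lay just above that limit and Oxt (mean 2.68) below it.

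The arrays did not differ by treatment alone. Average-linkage clustering used the 12944 probe sets with a mean of at least 4. It put 26 arrays into 3 clusters, called A, B and C here. It left 4 arrays by themselves (control 1, haloperidol 2, haloperidol 7 and clozapine 7). From the control, clozapine and haloperidol groups, in that order, 3, 3 and 5 arrays fell in A, 4, 1 and 3 in B, and 2, 5 and 0 in C. All arrays of A had replicate numbers from 1 to 6. RNA quality was read from the gap between 3' and 5' probe sets of Gapdh and Actb. Cluster A averaged 0.64 ± 0.11 (SD, n = 11), cluster B 0.60 ± 0.15 (n = 8) and cluster C 1.06 ± 0.22 (n = 7). It was 4.09 in control 1 and 2.45 in haloperidol 7. Of 26 interneuron markers 20 had a mean of at least 4, and of 27 hypothalamic markers 14 had, each by its highest probe set. Among all probe sets 12944 of 22626 reached that mean, which lies below every array median (4.63 to 4.88). These counts do not by themselves show that the markers were detected. None of 7 pituitary markers reached that mean, but growth hormone (Gh) stood at 9.17 in control 7, against 6.63 in the next highest array.

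No member passed the test between treatments. At an adjusted p under 0.05 in limma, 0% of the 12944 probe sets were called in each of the 3 comparisons, members included. The smallest adjusted p was 1 for clozapine against control, 1 for haloperidol against control and 0.965 for clozapine against haloperidol. Without adjustment, 563, 298 and 406 probe sets had a p under 0.05, which is 4.35%, 2.30% and 3.14% of those tested. With limma's array weights, 1731 of the 12944 probe sets were called for clozapine minus control, with 0 of the 7 tested members among them. At that share, 0 of 7 is no result about the members. The weights of controls 7 to 10 ran from 3.44 to 4.86, and the highest of any other array was 1.69 (clozapine 10). Those 4 controls lie in cluster B, which holds 1 clozapine array. Of the 7 tested members, 4 were higher and 3 lower with clozapine than in controls, at a median difference of 0.034 against 0.023 over all probe sets. With haloperidol 2 were higher and 5 lower (median -0.054, against -0.030 over all). Against haloperidol, 6 were higher with clozapine and 1 lower (median 0.25, against 0.050 over all). Of all 12944 probe sets, 7153 were higher with clozapine than in controls and 7308 were lower with haloperidol than in controls. Between drugs, 7858 were higher with clozapine. These comparisons share their control or drug arrays and are not independent of each other.

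Of the interneuron peptides, Sst differed most in relation to its error. Somatostatin is the inhibitory peptide of dendrite-targeting interneurons. Its lowest, median and highest values were 9.43, 9.65 and 10.09 in controls, 9.34, 9.66 and 10.20 with clozapine, and 8.65, 9.47 and 10.25 with haloperidol. The groups overlapped, but 1 of 10 haloperidol arrays exceeded the control mean, and 9 of 10 clozapine arrays exceeded the haloperidol mean. The means were 9.70 ± 0.19 in controls, 9.73 ± 0.25 with clozapine and 9.39 ± 0.44 with haloperidol (SD, n = 10 each). The difference of haloperidol from control was -0.31 (SE 0.14, 95% interval -0.60 to -0.015), and limma gave an adjusted p of 1. Clozapine minus haloperidol was 0.34 (SE 0.14, interval 0.049 to 0.64), with an adjusted p of 0.965 in limma. Clozapine minus control was 0.034 (SE 0.14). Within cluster A, haloperidol lay 0.32 below control by means (9.25 of 5 arrays against 9.57 of 3), and within cluster B 0.16 below it (9.58 of 3 against 9.73 of 4). Cluster C held no haloperidol array.

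**Figure D1:**
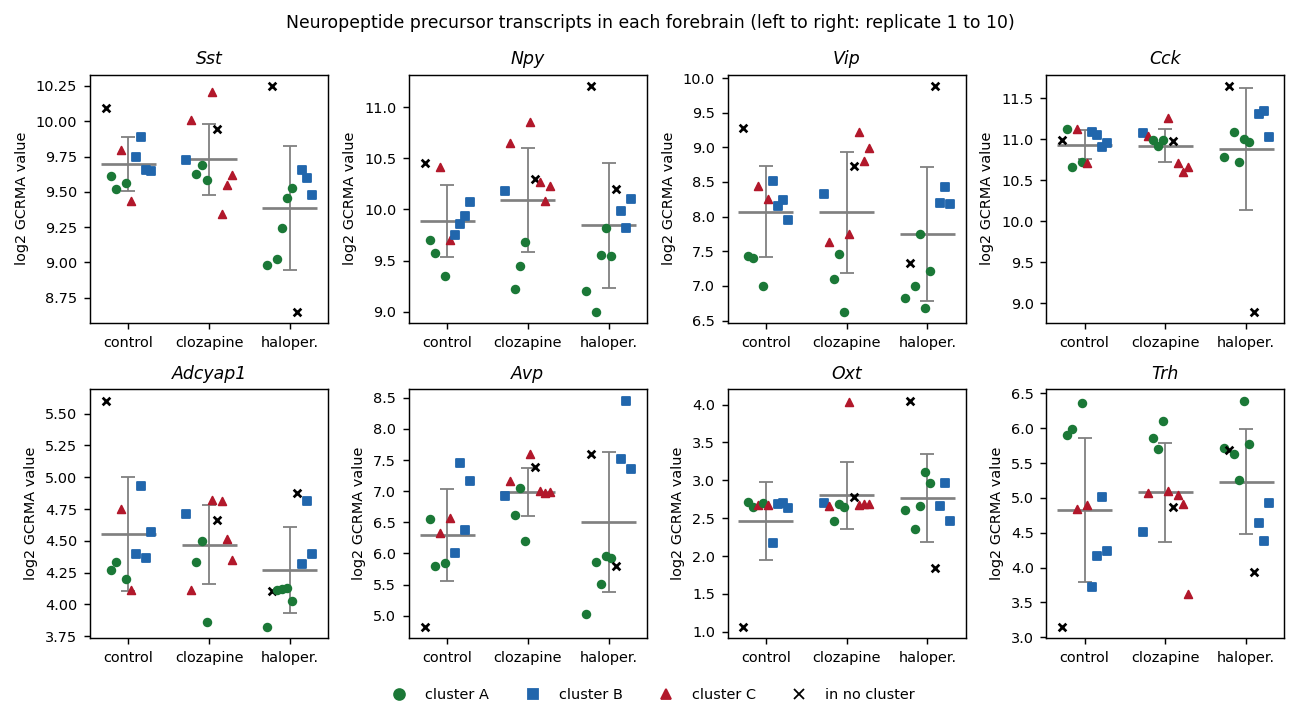
Each panel plots 1 precursor transcript, with treatment on the horizontal axis and the log2 GCRMA value on the vertical axis. Points are the 10 mice of a group in the order of their replicate numbers, coloured by array cluster, and grey lines give the mean and SD. The groups overlap in all 8 panels, and cluster A (green) sits low for Vip and high for Trh.

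Npy, a peptide of interneurons that dampens transmitter release, ran from 9.35 through a median of 9.80 to 10.46 in controls. Values were 9.22, 10.20 and 10.86 with clozapine and 9.0, 9.82 and 11.21 with haloperidol. The highest value of all was haloperidol 2, an array outside the clusters. Clozapine minus control was 0.21 (SE 0.22) and haloperidol minus control -0.038 (SE 0.22), both smaller than their errors. Clozapine minus haloperidol was 0.25 (SE 0.22).

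Vip marks interneurons that inhibit other interneurons. It ranged from 7.0 to 9.28 in controls (median 8.19), from 6.63 to 9.22 with clozapine (median 8.04) and from 6.68 to 9.89 with haloperidol (median 7.54). The spread within each group was larger than any difference between groups. The means of control and clozapine differed by -0.0043 (SE 0.36), with a 95% interval from -0.74 to 0.73. Haloperidol minus control was -0.32 (SE 0.36), but with the array cluster as a block it was -0.033.

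Cck, the most widespread cortical peptide, was the steadiest member in the controls. Its lowest, median and highest values were 10.67, 10.97 and 11.13 in controls and 10.60, 10.99 and 11.26 with clozapine. In haloperidol they were 8.90, 11.02 and 11.65, where the low value was haloperidol 7 alone and the next lowest array stood at 10.73. Clozapine minus control was -0.010 (SE 0.20). Haloperidol minus control was -0.054 (SE 0.20), and without haloperidol 7 it was 0.17, so that 1 array set the sign.

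Adcyap1 values were 4.11, 4.38 and 5.60 in controls, 3.86, 4.50 and 4.82 with clozapine, and 3.83, 4.12 and 4.88 with haloperidol. The highest control was control 1, the array with the largest 3' to 5' difference. Haloperidol minus control was -0.28 (SE 0.17, interval -0.62 to 0.058), with 2 of 10 haloperidol arrays above the control mean. Clozapine minus control was -0.085 (SE 0.17). Without control 1 the difference was -0.16 for haloperidol and 0.031 for clozapine.

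Avp had the largest difference among the hypothalamic peptides. Vasopressin is the antidiuretic hormone and also acts within the brain. Its lowest, median and highest values were 4.82, 6.35 and 7.45 in controls, 6.21, 6.99 and 7.60 with clozapine, and 5.03, 5.95 and 8.45 with haloperidol. Clozapine arrays lay close together. Control arrays reached further down than they did, and haloperidol arrays reached further both down and up. The means were 6.29 ± 0.74 in controls, 6.99 ± 0.38 with clozapine and 6.50 ± 1.13 with haloperidol (SD, n = 10 each). Clozapine minus control was 0.70 (SE 0.35, 95% interval -0.0095 to 1.41), which is 1.62-fold, with 9 of 10 clozapine arrays above the control mean and an adjusted p of 1 in limma. The gap was 0.55 within cluster A (3 arrays against 3), 0.69 within cluster C (5 against 2) and 0.18 within cluster B (1 against 4). With limma's array weights, which were highest for controls 7 to 10, it was 0.41. Haloperidol minus control was 0.21 (SE 0.35), but -0.41 within cluster A and 1.03 within cluster B, so its sign depended on the cluster. Clozapine minus haloperidol was 0.49 (SE 0.35).

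Beside Avp, the summed unlogged signal of 27 other hypothalamic genes had medians of 9722 in controls (5345 to 11892), 8469 with clozapine (6658 to 12977) and 10040 with haloperidol (7522 to 11136). Peg3, Nnat, Ahi1 and Resp18 made up 88.0% to 96.6% of that sum in every array, so it mostly followed these 4 genes. It was not shown to measure the amount of hypothalamus. For clozapine minus control, Peg3 differed by -0.39 (SE 0.50), Nnat by -0.23 (SE 0.20), Ahi1 by 0.13 (SE 0.20) and Resp18 by 0.23 (SE 0.18). Of the 14 genes of the list tested, 10 were higher with clozapine, against 7153 of all 12944 probe sets. Among the 27 genes, 13 had a mean under 4, among them Pomc, Ghrh and the hypothalamic transcription factors Sim1, Otp and Nkx2-1. The summed signal of 7 pituitary genes ran from 42.7 to 623 in controls, from 46.6 to 140 with clozapine and from 44.0 to 94.5 with haloperidol. Whether the amount of hypothalamus or pituitary in each sample played a part in the Avp values was not tested.

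Trh, which drives thyrotropin release and is also made outside the hypothalamus, ran from 3.15 through 4.87 to 6.36 in controls, from 3.61 through 5.06 to 6.10 with clozapine and from 3.94 through 5.45 to 6.39 with haloperidol. The groups covered nearly the same range. Haloperidol minus control was 0.41 (SE 0.36), and -0.017 with the array cluster as a block. Clozapine minus control was 0.25 (SE 0.36), and -0.027 with that block. Without control 1, the lowest array, the difference was 0.22 for haloperidol and 0.063 for clozapine. Oxt, the milk-ejection hormone, lay near the bottom of the scale in all groups, with medians of 2.67 in controls, 2.69 with clozapine and 2.66 with haloperidol, and was not tested. Its highest values were 4.04 in clozapine 6 and 4.05 in haloperidol 2, and its lowest was 1.07 in control 1.

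**Figure D2:**
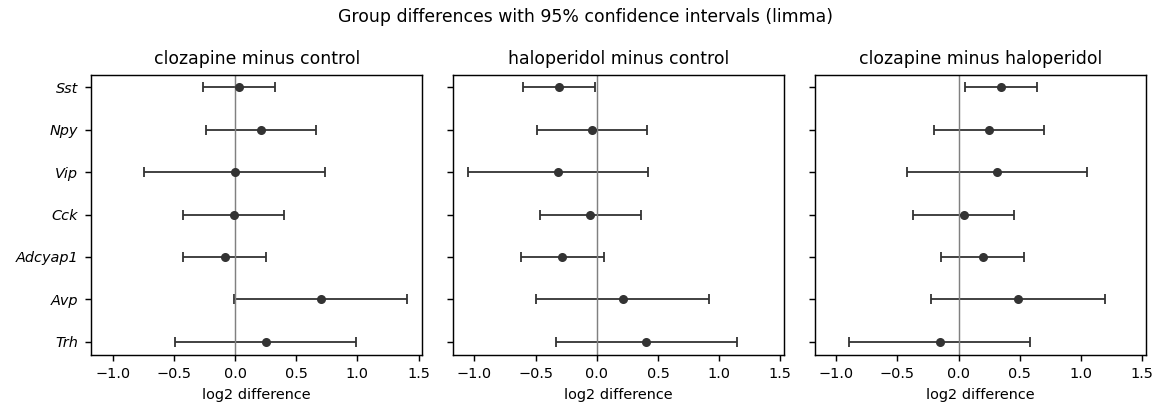
The 3 panels plot the log2 difference between groups (horizontal axis) for the 7 tested transcripts (vertical axis), with points for limma estimates and bars for their 95% confidence intervals. The intervals of Sst lie on 1 side of 0 for haloperidol minus control and clozapine minus haloperidol before adjustment for multiple tests, and the interval of Avp for clozapine minus control reaches from -0.0095 to 1.41.

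For all tested members but Sst, the SD between mice of a treatment exceeded each difference between treatments. For Sst it was 0.31, against 0.34 for clozapine minus haloperidol. With treatment means removed, Trh had an SD of 0.85 between mice, Vip 0.84 and Avp 0.81, which placed them at percentiles 89.6, 89.5 and 88.4 of the 12944 tested probe sets. The median probe set had an SD of 0.44. Npy (0.50) stood at percentile 62.9, Cck (0.46) at 55.0, Adcyap1 (0.37) at 34.8 and Sst (0.31) at 21.7. Cck dropped to percentile 9.75, with an SD of 0.20, when control 1, haloperidol 2 and haloperidol 7 were left out.

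Levels of several members differed between the array clusters. Vip averaged 7.14 ± 0.35 in cluster A (SD, n = 11), 8.25 ± 0.17 in cluster B (n = 8) and 8.44 ± 0.61 in cluster C (n = 7). The ranges of A (6.63 to 7.75) and B (7.96 to 8.52) did not overlap. Trh ran the other way, with 5.88 ± 0.33 in A, 4.45 ± 0.42 in B and 4.78 ± 0.52 in C. Its range in A (5.25 to 6.39) lay above those of B (3.72 to 5.01) and C (3.61 to 5.09). Npy averaged 9.46 in A, 9.96 in B and 10.31 in C, and Avp 6.04, 7.16 and 6.95. Adcyap1 averaged 4.16, 4.56 and 4.50, Sst 9.44, 9.67 and 9.71, and Cck 10.91, 11.09 and 10.87. The clusters were made from the 12944 probe sets with a mean of at least 4, the tested members included, so these contrasts carry no test. How many of all probe sets separate the clusters in this way was not counted. The separation can therefore not be called particular to Vip or Trh. With cluster means removed as well, the SD of the median probe set was 0.28, that of Vip 0.42, of Trh 0.43 and of Avp 0.55. These members then stood at percentiles 82.7, 85.0 and 93.7, so they remained among the more variable probe sets.

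Clusters A and B were divided by replicate number, whose meaning the labels do not state: 11 arrays of A and 1 of B had numbers 1 to 6, and 0 and 7 had numbers 7 to 10. Cluster C held 4 and 3 of them. Among clozapine arrays, Vip was 8.93 ± 0.22 (SD, n = 4) for numbers 7 to 10 and 7.48 ± 0.58 (n = 6) for numbers 1 to 6, and the lowest of the former (8.72) exceeded the highest of the latter (8.32). Among haloperidol arrays it was 8.67 ± 0.82 against 7.13 ± 0.38, again without overlap (8.19 and 7.75). Among controls, the means of 8.21 and 7.97 came from overlapping ranges. The share of all probe sets without overlap between these number sets was not counted. Trh for numbers 7 to 10 and 1 to 6 was 4.47 ± 0.42 and 5.74 ± 0.37 with haloperidol, 4.61 ± 0.67 and 5.39 ± 0.60 with clozapine, and 4.29 ± 0.54 and 5.19 ± 1.17 in controls. Avp was 7.29 ± 1.10 and 5.98 ± 0.87 with haloperidol, 7.08 ± 0.20 and 6.93 ± 0.48 with clozapine, and 6.75 ± 0.67 and 5.99 ± 0.66 in controls. Each treatment held 6 arrays of the lower and 4 of the higher numbers.

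Pairs of members varied together across mice, and how much of this lay between clusters was not measured. Over the 30 arrays with treatment means removed, 17 of 28 pairs passed a two-sided permutation test at an adjusted p under 0.05, 12 positive and 5 negative, by Pearson r. By Spearman rho 12 passed. The permutations shuffled arrays across clusters, and the share of all pairs of probe sets that would pass was not counted. The counts can therefore not be called particular to these members. Oxt, below the level required for the group tests, took part in 5 of the 17 pairs and in 1 of the 12. Vip and Cck (r = -0.45) passed by Pearson only, and r was -0.081 without the 2 arrays farthest in Vip. Within clusters A, B and C treatment means were not removed, so those coefficients also hold differences between treatments. Of 84 tests within clusters 0 passed (9 had an unadjusted permutation p under 0.05, and the smallest adjusted p was 0.252). With 11, 8 and 7 arrays and 1 adjustment over all 84 tests, failing to pass does not show that a relation is absent. The pooled coefficients are given only beside those within clusters.

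Vip and Trh had the strongest relation, with Pearson r = -0.84 and Spearman rho = -0.87. Both had a permutation p of 1e-05, the smallest that 100000 resamples can give, and adjusted p values of 9.33e-05 and 0.00028. Without the 2 arrays farthest from the median of Vip, r was -0.83. The coefficient was -0.64 in the 11 arrays of A, -0.32 in the 8 of B and -0.45 in the 7 of C. The sign was negative in each cluster, and no cluster passed the adjusted test.

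Vip and its relative Adcyap1 varied in the same direction, with r = 0.72 and rho = 0.69 (adjusted permutation p = 9.33e-05 and 0.000467), and r was 0.64 without the 2 arrays farthest in Vip. Within clusters r was 0.58, 0.014 and 0.29. Adcyap1 and Trh had r = -0.67 and rho = -0.68 (adjusted permutation p = 0.00028 and 0.00042), and r = -0.53 without the 2 arrays farthest in Adcyap1. Within clusters r was 0.0022, -0.33 and 0.22, so its sign varied.

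The interneuron peptides Sst and Cck had r = 0.74 and rho = 0.67 (adjusted permutation p = 9.33e-05 and 0.00049). Leaving out haloperidol 2 and haloperidol 7, r was 0.63. Within clusters r was 0.13 in A, -0.099 in B and 0.87 in C. Sst and Npy, which share many cortical interneurons, had r = 0.62 and rho = 0.55 (adjusted permutation p = 0.00218 and 0.00664), and r = 0.67 without the same arrays. Within clusters r was 0.54, -0.36 and 0.86. The neighbouring genes Avp and Oxt had r = 0.52 and rho = 0.47 (adjusted permutation p = 0.0172 and 0.0236), and r = 0.57 without haloperidol 1 and haloperidol 9. Within clusters r was -0.030, 0.74 and 0.70. In cluster C, Oxt was 4.04 in clozapine 6 and 2.65 to 2.69 in the other arrays, so that coefficient leaned on 1 array. Without control 1, haloperidol 2 and haloperidol 7, the pooled r was 0.25 and did not pass.

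**Figure D3:**
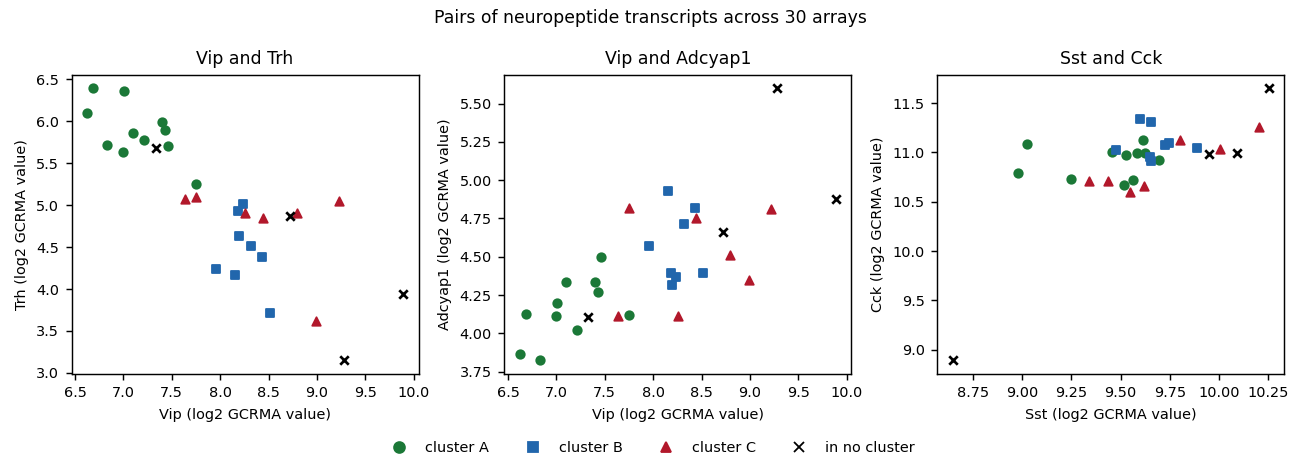
Each point is 1 of 30 arrays, with the log2 GCRMA value of 1 transcript on each axis and the array cluster as colour and shape. In the left panel cluster A lies at low Vip and high Trh and clusters B and C at higher Vip and lower Trh. In the right panel haloperidol 7 is the single point at the lower left, with Cck at 8.90.

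Some members moved with the 3' to 5' difference of the arrays. Over 30 arrays with treatment means removed, Pearson r was 0.70 for Adcyap1, 0.58 for Vip, 0.44 for Npy, -0.51 for Trh and -0.51 for Oxt, with adjusted permutation p values of 0.00064, 0.00404, 0.0371, 0.00456 and 0.0238 over 8 members. Spearman rho was 0.47, 0.46, 0.52, -0.29 and -0.16, with adjusted permutation p values of 0.0325, 0.0325, 0.0325, 0.232 and 0.622. Without control 1 and haloperidol 7, r was 0.35, 0.38, 0.54, -0.17 and 0.32, so the relations of Trh and Oxt rested on those arrays. Treatment means were not removed within clusters A, B and C. In that order, r for Npy was 0.26, 0.29 and 0.26, for Vip 0.59, 0.41 and 0.21, and for Adcyap1 0.56, 0.26 and 0.79. For Avp, Cck and Sst the pooled r was -0.35, -0.34 and 0.080 (adjusted permutation p = 0.0729, 0.0729 and 0.645), with rho of -0.12, -0.072 and 0.13 (adjusted permutation p = 0.622, 0.702 and 0.622). The share of all probe sets that move with this difference was not counted, so the relation cannot be called particular to these members. The part of RNA quality in the members' values was not tested beyond this.

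The genes most like each member were those with the highest Pearson r to it across the 30 arrays, treatment means removed, among 7576 genes. These coefficients describe arrays that share clusters and RNA quality. For Sst they were Slc3a2 (r = 0.89), Cdk2ap2, Uqcr10, Atp5g1 and Crip2. For Npy they were Syngr3 (0.92), Gde1, Naa38, Surf1 and Gtf3c1, and for Vip Ryr3 (0.95), Map2k4, Tbc1d24, Ppp2r3c and Tmtc4. Cck was closest to Elob (0.93), Snrpb, Adgrb1, Tecr and Mif. Adcyap1 was closest to Med21 (0.82), Prelid3b, Lrpprc, Mal and Pitrm1. Avp was closest to Rab3a (0.86), a vesicle protein of synapses, and then to Ncln, Rps6kb2, Ap2a1 and Nsg1. Trh was closest to Id1 (0.90), Mapt, Med16, Tle1 and Pik3r2. None of these 35 genes is another member of the list.

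The enzymes and granule proteins that process and store peptides passed the test in 0 of 14 cases in each comparison. Against control, 10 of the 14 were lower with haloperidol (median -0.14), while 8 were higher with clozapine (median 0.021). Of all 12944 probe sets, 7308 were lower with haloperidol (median -0.030) and 7153 higher with clozapine (median 0.023). Between drugs, 13 of 14 were higher with clozapine (median 0.14), against 7858 of all 12944 probe sets (median 0.050). The smallest p values for haloperidol minus control were those of the granins Scg2 (-0.29, SE 0.12) and Chgb (-0.34, SE 0.14) and of Cadps (-0.27, SE 0.17), which primes vesicles for release. For clozapine minus control they were those of the protease Furin (0.12), Chgb (-0.14) and the protease Ctsl (-0.13). For clozapine minus haloperidol they were those of Scg2 (0.31), Cadps2 (0.33) and Chgb (0.19).

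Of 21 receptor genes for the members' peptides, 6 had a mean of at least 4, and 0 of 6 passed in each comparison. Npy1r, a receptor of Npy, differed by -0.55 (SE 0.21) with clozapine and by -0.45 (SE 0.21) with haloperidol, both against the same controls. The next smallest p values were those of Npy2r (0.41) and the Trh receptor Trhr (0.42) for clozapine, and of the somatostatin receptor Sstr2 (0.10) and Trhr (-0.16) for haloperidol. Between drugs, clozapine minus haloperidol was 0.58 for Trhr, -0.19 for Sstr2 and 0.29 for Npy2r. The median over the 6 receptors was 0.0032 for clozapine minus control, 0.013 for haloperidol minus control and -0.031 between drugs.

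Interneuron markers passed in 0 of 20 cases in each comparison, with 12 higher and 8 lower for clozapine minus control (median 0.028), 9 and 11 for haloperidol minus control (-0.037), and 12 and 8 for clozapine minus haloperidol (0.052). In that order of comparisons, 7153, 5636 and 7858 of all 12944 probe sets were higher (medians 0.023, -0.030 and 0.050). For clozapine minus control the smallest p values were those of Gad2, a GABA-synthesizing enzyme (-1.34, SE 0.51), Erbb4 (0.35) and the potassium channel Kcnc1 (-0.75). For haloperidol minus control they were those of Penk, the enkephalin precursor (0.33, SE 0.13), Satb1 (-0.21) and Nxph1 (-0.26). Between drugs they were those of Satb1 (0.23), Penk (-0.23) and Kcnc1 (-0.93). Penk is also in the striatum list used here, so its differences cannot be assigned to interneurons.

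Other hypothalamic genes passed in 0 of 14 cases in each comparison, with 10 higher for clozapine minus control (median 0.093), 7 for haloperidol minus control (-0.0014) and 11 for clozapine minus haloperidol (0.12). Among all 12944 probe sets, 7153, 5636 and 7858 were higher in these comparisons (medians 0.023, -0.030 and 0.050). For clozapine minus control the smallest p values were those of Resp18 (0.23), the orexin precursor Hcrt (0.21) and the galanin precursor Gal (0.15). For haloperidol minus control they were those of Ahi1 (-0.28), the neurotensin precursor Nts (-0.32) and Hcrt (-0.10). Between drugs they were those of Ahi1 (0.41), Hcrt (0.31) and Nnat (-0.29). Marker lists of 9 other regions and cell types (thalamus, striatum, cortex and hippocampus, monoamine midbrain, choroid plexus, oligodendrocytes, astrocytes, microglia and endothelium) were also called in 0 cases in each comparison. Of 2 blood genes 0 had a mean of at least 4, and their summed signal reached at most 67.7, in a clozapine array.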

How the data were processed

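Trizol RNA of each forebrain was labelled as biotinylated cRNA and hybridised to 1 Affymetrix MOE430A array per mouse, per the labels' protocols. The authors deposited log2 values for each probe set, and the submitters' processing notes name GCRMA as the method. Neither its version nor any scan date is given in the sources used here. GCRMA pulls probe sets near background together, which can shrink the differences of Oxt and Adcyap1. The members and lists were chosen with earlier results of these data known.

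Samples were grouped by title. Of 22690 probe sets, 64 controls were left out. Of the rest, 20380 have 1 gene symbol, 691 several and 1555 none. Group differences were fitted in R 4.3.3 by lmFit and eBayes of limma 3.58.1 (30 arrays, 3 groups, 27 residual degrees of freedom before moderation, median SE 0.19) on probe sets with a mean of at least 4, with Benjamini-Hochberg adjustment and calls under 0.05, and the script was tested on simulated data. Correlations used permutations (100000 resamples, exact in clusters under 10 arrays). Array clusters came from average linkage on 1 minus Pearson r, split into 7.

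Genes were named by rule: all members and the 5 genes most correlated with each tested member. In the processing, receptor, interneuron and hypothalamic lists, the 3 genes of smallest p per comparison were named. Gh and further genes of the hypothalamic sum were named outside this rule. Other lists were used only for summed levels and counts, apart from Gh. They cover pituitary, thalamus, striatum, cortex and hippocampus, monoamine midbrain, choroid plexus, oligodendrocytes, astrocytes, microglia, endothelium and blood. The number of arrays limits the precision. Alternatives were another filter, quantile normalization, blocks, weights, an RNA quality term and leaving out arrays.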

Additional observations from a re-analysis of the deposited data

Results flagged for a closer look

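In 24 groups of 10 arrays (8 transcripts in 3 treatments), 3 arrays stood apart from the rest of their group, where chance gives about 1 in 20. Cck was 8.90 in haloperidol 7, with the nearest other haloperidol array at 10.73. Oxt was 4.04 in clozapine 6, with the nearest other clozapine array at 2.79. Oxt was 1.07 in control 1, with the nearest other control at 2.18. Haloperidol 7 and control 1 are also the arrays with the largest 3' to 5' differences (2.45 and 4.09).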

How the results depend on the processing

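The count of members called was 0 under all 40 alternatives in each comparison (39 for Adcyap1 and Trh, which a minimum mean of 6 leaves out), with a smallest adjusted p of 0.149 in limma (Sst, haloperidol minus control, with array weights). Of 834 differences recomputed, 782 kept their sign and side of the threshold and 52 changed sign. Of all 12944 probe sets, array weights called 1731 for clozapine minus control. For haloperidol minus control the cluster block called 1 and weights with the cluster block, added after seeing the data, called 5. With the replicate number as a block, 0 members and 0 probe sets were called in each comparison, and Avp for clozapine minus control was 0.70 (SE 0.28, adjusted p = 0.743 in limma). The labels do not state what the numbers mean, and the numbers were not taken to pair the mice. Of 30 same-number pairs, 17 had r over 0.1 (range -0.50 to 0.80, median 0.165). Among arrays of the other treatments, 4 of 30 arrays correlated best with an array of their own number. These values do not decide whether the numbers pair mice.

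No member difference was called under any setting, so every sign change had to fall in an uncalled difference. The cause of the sign changes was not tested. For clozapine minus control, Vip was 0.018 with quantile normalization, 0.13 without control 1, haloperidol 2 and haloperidol 7, 0.084 with the RNA quality term and 0.075 with weights and the cluster block. Cck was 0.062 with the cluster block and 0.054 with weights as well. Adcyap1 was 0.031 without those 3 arrays, 0.060 with the cluster block and 0.076 with weights as well, and Trh was -0.027 with the cluster block. For haloperidol minus control, Npy was 0.022 with the cluster block, 0.037 with weights as well and 0.040 with the RNA quality term. Cck was 0.10 without the 3 arrays, 0.12 with the cluster block, 0.14 with weights as well and 0.023 with weights alone. Avp was -0.00036 without the 3 arrays and -0.094 with weights, and Trh was -0.017 with the cluster block. For clozapine minus haloperidol, Cck was -0.11 without the 3 arrays, -0.054 with the cluster block, -0.089 with weights as well and -0.10 with weights alone.

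Leaving out 1 array at a time gave ranges, for clozapine minus control, of -0.019 to 0.078 for Sst, -0.13 to 0.16 for Vip, -0.047 to 0.025 for Cck, -0.13 to 0.031 for Adcyap1, 0.54 to 0.83 for Avp, 0.12 to 0.31 for Npy (lowest without clozapine 6) and 0.063 to 0.42 for Trh (control 1, control 5 and clozapine 10 among those moving it most). For haloperidol minus control they were -0.19 to 0.056 for Npy, -0.14 to 0.17 for Cck, -0.0041 to 0.38 for Avp, -0.41 to -0.23 for Sst, -0.55 (without haloperidol 7) to -0.18 (without control 1) for Vip, -0.35 to -0.16 (without control 1) for Adcyap1 and 0.22 (without control 1) to 0.58 for Trh. For clozapine minus haloperidol they were -0.18 to 0.13 for Cck, -0.30 to 0.0068 for Trh, 0.26 to 0.44 for Sst, 0.15 to 0.40 for Npy, 0.18 to 0.55 for Vip, 0.15 to 0.26 for Adcyap1 and 0.32 to 0.70 for Avp.

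The count of correlated pairs was 17, against 12 by Spearman rho (added after seeing the data), 10 with quantile normalization and 0 within each of clusters A, B and C, which hold fewer arrays. Treatment means were not removed within clusters. The share of all pairs of probe sets that would pass was not counted. Within cluster B, r was -0.36 for Sst with Npy and -0.099 for Sst with Cck. For Adcyap1 with Trh it was 0.0022 in A and 0.22 in C, and for Avp with Oxt it was -0.030 in A. The number of members with an SD above the median of all probe sets was 5, and 3 with cluster means removed.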
